A study of Mus musculus with 12 samples.

Results

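Voltage-gated calcium and sodium channel genes were examined in medial prefrontal cortex (PFC) of male mice that carried or lacked the tyrosine kinase gene Fyn. The group comprised every gene whose only platform symbol begins with Cacna, Cacnb or Cacng, or is Scn followed by a digit. This gave 35 genes on 85 probe sets, of 18193 genes on 34945 probe sets with 1 symbol. The probe set with the highest mean over the 12 arrays stood for a gene, and 25 of the 35 genes were bright enough to be tested, of 12323 genes in all. Of all probe sets of the channel genes, 52 passed the same filter, of 24770.

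Each Affymetrix whole-genome array held RNA pooled from 3 mice. Mice without Fyn were of the stock B6;129S7-Fyn-tm1Sor/J, and controls were of the stock B6129SF2/J. Animals of both genotypes were obtained at 12 weeks of age and had 3 days of saline injections for habituation. On the day of the experiment they received saline or ethanol at 3 g/kg, and tissue was taken 4 hours later. Each combination of genotype and treatment was represented by 3 pools, which gave 4 groups. The genotypes came from separate stocks, so a difference due to Fyn cannot be told apart from one of stock.

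Voltage-gated calcium channels are built around a pore-forming alpha1 subunit (Cacna1 genes), which opens on depolarization and lets calcium into the cell. Extracellular alpha2delta subunits (Cacna2d) and cytoplasmic beta subunits (Cacnb) govern how many channels reach the membrane and how they gate. Most neuronal proteins of the Cacng family are TARPs, which carry AMPA-type glutamate receptors to the synapse and slow their closing. Voltage-gated sodium channels consist of a pore-forming alpha subunit (such as Scn1a, Scn2a and Scn8a) and adhesive beta subunits (Scn2b, Scn3b, Scn4b), and generate the rising phase of the action potential. Fyn is known to phosphorylate ion channels and NMDA-type glutamate receptors in neurons.

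Start regions from the RefSeq table (GRCm38.p6) are shown for Cacnb2 and Cacna1e. A probe set of Cacnb2 was called after ethanol over both genotypes. Cacna1e had the smallest p-value in that comparison among the probe sets that stood for a channel gene. Cacna1a, of which a probe set was also called, had no entry. Cacnb2, which encodes a calcium channel beta subunit, had 2 annotated starts on chromosome 2, and Cacna1e, the pore of R-type calcium channels, had 1 on chromosome 1. Each window spans 300 bases around the start and is written 5′ to 3′, with a GC box (GGGCGG or its complement CCGCCC) in capitals.
Cacnb2, upstream start, plus strand, chr2:14604056-14604355: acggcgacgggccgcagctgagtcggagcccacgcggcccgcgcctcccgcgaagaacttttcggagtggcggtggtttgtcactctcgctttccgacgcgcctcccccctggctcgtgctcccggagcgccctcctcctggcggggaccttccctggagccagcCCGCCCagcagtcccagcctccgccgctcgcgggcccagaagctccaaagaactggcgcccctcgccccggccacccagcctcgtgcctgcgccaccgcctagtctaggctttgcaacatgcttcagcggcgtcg
Cacnb2, downstream start, plus strand, chr2:14823842-14824141: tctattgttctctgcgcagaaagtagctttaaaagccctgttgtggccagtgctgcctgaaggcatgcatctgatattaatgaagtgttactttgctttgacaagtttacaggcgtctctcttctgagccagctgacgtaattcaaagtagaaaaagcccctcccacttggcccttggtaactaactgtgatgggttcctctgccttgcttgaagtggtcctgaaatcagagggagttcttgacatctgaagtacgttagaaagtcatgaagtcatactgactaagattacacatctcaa
Cacna1e, minus strand, chr1:154725871-154726170: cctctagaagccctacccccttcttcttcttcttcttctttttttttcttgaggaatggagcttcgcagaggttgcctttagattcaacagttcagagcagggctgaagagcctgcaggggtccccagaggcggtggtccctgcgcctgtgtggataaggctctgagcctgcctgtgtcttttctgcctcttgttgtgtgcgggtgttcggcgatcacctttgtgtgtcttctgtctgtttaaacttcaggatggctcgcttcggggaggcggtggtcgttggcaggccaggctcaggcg
The upstream start of Cacnb2 was 71.7% G and C and held 1 GC box, whereas its downstream start was 44% G and C and held none. Cacna1e was 55.3% G and C, with none. Over the 37 windows listed for 27 of the channel genes, 37.8% held a GC box on either strand, against 35.7% of all 32851 windows. A TATA box (TATAAA, or TTTATA on the other strand) was in 5.41% of the channel windows and 13.6% of all. The cyclic AMP response element TGACGTCA, which reads the same on both strands, was in 0 of the 37 and in 1.79% of all. The letters of these words do not overlap with each other in the windows shown. A match describes the sequence and is no evidence of binding.

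Values are log2 signals made by the authors with RMA, so a difference of 1 is a doubling. Each probe set was fitted with limma, and called where its p, adjusted by Benjamini-Hochberg over all 24770, was under 0.05. Array medians lay between 5.40 and 5.48. The brighter Fyn probe set lay at 9.31 to 9.70 in control pools and 8.64 to 9.01 in Fyn-null pools, apart from 2 saline pools whose Fyn value lay in the other genotype's range or beyond it. One was labelled Fyn-null saline replicate 4 (9.45) and one control saline replicate 2 (8.74). Directions that rest on saline pools carry this doubt. The dimmer Fyn probe set overlapped between the genotypes, at 7.53 to 7.95 in control and 7.50 to 7.81 in Fyn-null pools. With all pools, no genotype comparison called a Fyn probe set or any other. An absence of calls there does not show that levels were equal. Neuronal markers (6 of 6) and those of glia were present in all groups, while the choroid plexus markers Kl and Folr1, the muscle marker Myh4 and the striatal marker Drd2 were below the filter. Other markers of those tissues passed it, namely Ttr (5.90 to 6.35) for choroid plexus, Acta1 (7.28 to 7.63) and Ckm (5.38 to 5.84) for muscle, and Drd1 (5.67 to 6.35) and Rgs9 (7.63 to 8.17) for striatum.

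Signs of RNA quality and of another cell type moved with ethanol. The log2 ratio of 3′ to 5′ signal of actin and Gapdh transcripts was 0.542, 0.654 and 0.991 in control saline and 0.400, 0.446 and 0.481 in control ethanol. It was 0.763, 0.845 and 0.827 in Fyn-null saline and 0.627, 0.387 and 0.434 in Fyn-null ethanol. Ethanol pools were thus lower within each genotype, by -0.31 over both (two-sided exact permutation test, 6 against 6 pools, p = 0.00433). Of the 31 cell type markers tested, 2 were called with ethanol over both genotypes, both of endothelium: Cldn5 (-0.64, adjusted p = 0.000312) and Flt1 (-0.41, adjusted p = 0.00164). The third, Pecam1, was at -0.08 (adjusted p = 0.626). The mean level of the 3 endothelial markers was 7.11 to 7.31 in control saline, 6.66 to 6.86 in control ethanol, 7.19 to 7.35 in Fyn-null saline and 6.90 to 7.03 in Fyn-null ethanol pools. In bulk tissue, fewer cells of a type and less RNA per cell cannot be told apart. The part of these shifts in the ethanol differences below was not tested beyond a fit that held the ratio as a covariate. Values of that fit are given for some probe sets only, and it called 0 of the 52 channel probe sets over both genotypes. Of all 24770 probe sets it called 27 in that comparison. With so few calls in all, 0 of 52 does not set the channel genes apart. Several brightest probe sets changed sign in that fit, such as Cacng4 (-0.11 to 0.15), Cacna1g (-0.03 to 0.14) and Scn4b (0.09 to -0.21). Others kept theirs, such as Cacng5 (0.16 to 0.20) and Scn1a (-0.15 to -0.21).

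**Figure D1:**
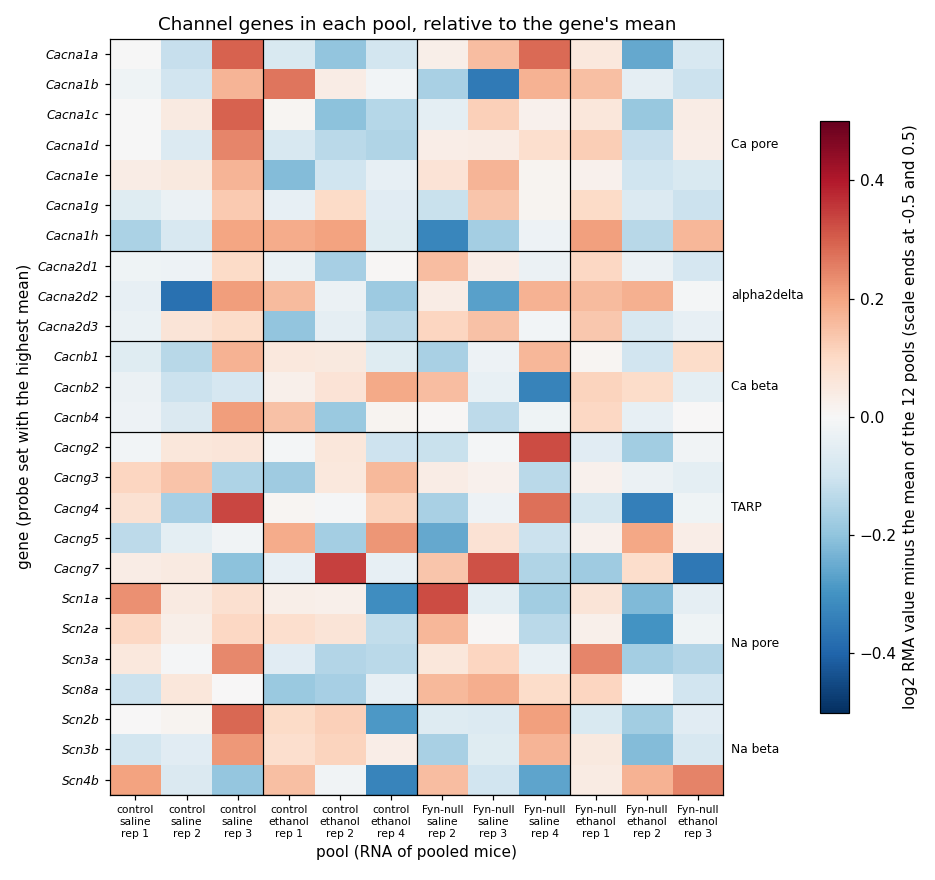
Log2 RMA value of each of the 25 tested channel genes (rows, by subunit class) in each of the 12 pools (columns, by group), as the difference from that gene's mean over the pools. Control saline replicate 3 holds the highest value in 10 of the 25 genes, and no group forms a block of one colour across a class.

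The response to ethanol asked which channel genes changed 4 hours after an anesthetic dose. With 1 probe set per gene, 0 of the 25 channel genes were called by limma in control mice, where 1.45% of all genes were called, and 1 of 25 had an unadjusted p under 0.05 (18.0% of all genes). In Fyn-null mice 0 of 25 were called (0.511% of all genes), and 0 had an unadjusted p under 0.05 (11.8% of all genes). Over both genotypes, with 6 pools against 6, 0 of 25 were called (6.69% of all genes), and 3 had an unadjusted p under 0.05 (23.7% of all genes). Their median difference over both genotypes was -0.07, against -0.04 for all genes, with 8 of 25 above 0 (37.5% of all genes). This median turned to 0.07 when a gene's probe sets were averaged and to 0.05 when the fit held the 3′ to 5′ ratio. Over all 52 probe sets of these genes, however, 1 was called in control mice (1.43% of all probe sets), 0 in Fyn-null mice (0.400%) and 2 over both genotypes (6.81%). The 2 were second probe sets of Cacna1a, which fell, and of Cacnb2, which rose.

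Cacna1a encodes the pore of P/Q-type calcium channels, which trigger transmitter release at most central synapses. Its probe set 1430408_at was 7.28, 7.28 and 7.42 in control saline and 6.73, 6.93 and 6.56 in control ethanol. In Fyn-null saline it was 7.12, 7.40 and 7.35, and with ethanol 6.89, 6.81 and 6.87. All 6 ethanol pools lay below all 6 saline pools. It fell by 0.58 in control mice (standard error 0.10, limma adjusted p = 0.0216) whereas Fyn-null mice gave -0.43 (standard error 0.10, adjusted p = 0.113). The responses of the genotypes differed by 0.15 (standard error 0.15, adjusted p = 0.992). Over both genotypes it fell by 0.51 (standard error 0.07, 0.703-fold, adjusted p = 0.00206).

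The brighter Cacna1a probe set, 1450510_a_at, was 7.11, 7.00 and 7.41 in control saline and 7.04, 6.92 and 7.02 in control ethanol. In Fyn-null saline it was 7.15, 7.27 and 7.40, and with ethanol 7.17, 6.86 and 7.04. The groups overlapped within each genotype, and ethanol gave -0.22 over both (standard error 0.08, adjusted p = 0.115). The third tested probe set, 1459996_at, lay between 5.96 and 6.34 and was at -0.06 (standard error 0.07, adjusted p = 0.603). The call for Cacna1a in control mice was lost without control saline replicate 2 (adjusted p = 0.0548), control saline replicate 3 (0.0839) or control ethanol replicate 1 (0.0765), and without both doubtful saline pools (0.0572). Over both genotypes 1430408_at stayed called without any 1 pool (adjusted p from 0.00161 to 0.00712). When the fit held the 3′ to 5′ ratio it was at -0.41 (standard error 0.12, adjusted p = 0.315), and 1450510_a_at turned to 0.05 (adjusted p = 0.935).

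Cacnb2 probe set 1452476_at was 6.41, 6.18 and 6.34 in control saline and 6.66, 6.71 and 7.12 in control ethanol. In Fyn-null saline it was 6.46, 6.14 and 6.03, and with ethanol 6.88, 6.68 and 6.52. All 6 ethanol pools lay above all 6 saline pools, the closest being 6.52 and 6.46. The difference was 0.52 in control mice (standard error 0.15, adjusted p = 0.0966) and, in mice without Fyn, 0.48 (standard error 0.15, adjusted p = 0.220). Over both genotypes it rose by 0.50 (standard error 0.10, 1.41-fold, adjusted p = 0.0120), and it stayed called without any 1 pool (adjusted p from 0.00810 to 0.0305). With that ratio in the fit it was at 0.58 (standard error 0.17, adjusted p = 0.309).

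The probe set that stood for Cacnb2, 1456401_at, was 7.49, 7.41 and 7.43 in control saline and 7.54, 7.58 and 7.70 in control ethanol. In Fyn-null saline it was 7.67, 7.48 and 7.18, and after ethanol 7.63, 7.61 and 7.46. The groups parted in control mice and overlapped in Fyn-null mice, where the saline pools spread widely. Over both genotypes it was at 0.15 (standard error 0.08, adjusted p = 0.259). Across the 12 pools the 2 probe sets of Cacnb2 had a correlation of 0.82.

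**Figure D2:**
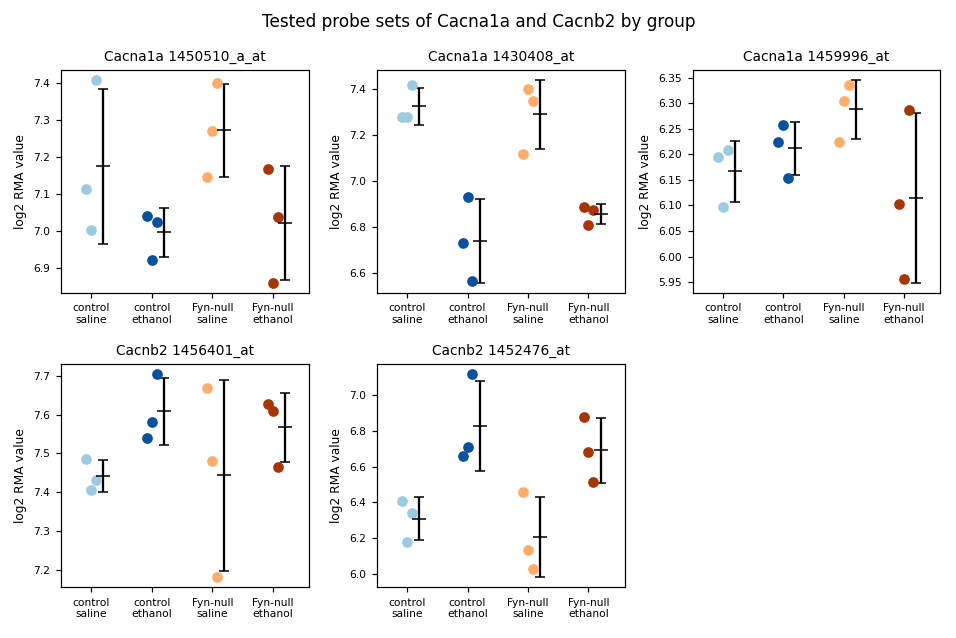
Log2 RMA value of the tested probe sets of Cacna1a (upper row) and Cacnb2 (lower row) in the 4 groups; points are pools and bars are mean ± SD (n = 3 pools), on axes that do not start at 0. Only Cacna1a 1430408_at (all ethanol pools at or below 6.93, all saline pools at or above 7.12) and Cacnb2 1452476_at part the treatments in both genotypes.

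Of the 7 tested calcium channel pore genes, 5 were below 0 and 2 above 0 over both genotypes, and none was called with the probe set that stood for the gene. Cacna1e was 9.57, 9.58 and 9.70 in control saline and 9.31, 9.43 and 9.49 in control ethanol. It was 9.60, 9.70 and 9.54 in Fyn-null saline and 9.55, 9.43 and 9.46 in Fyn-null ethanol. The ethanol pools were lower in control mice without overlap, and in Fyn-null mice 1 ethanol pool (9.55) reached the saline range. The difference was -0.21 in control mice (standard error 0.08, adjusted p = 0.199) and -0.17 over both genotypes (standard error 0.06, adjusted p = 0.0815). With the ratio in the fit the latter was -0.05 (standard error 0.08, adjusted p = 0.922).

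Cacna1c, the pore of the main L-type channel of brain and heart, was 7.33, 7.38 and 7.63 in control saline and 7.35, 7.13 and 7.19 in control ethanol. It was 7.29, 7.45 and 7.36 in Fyn-null saline and 7.40, 7.15 and 7.37 in Fyn-null ethanol. The groups overlapped in both genotypes, at -0.23 in control mice (standard error 0.10, adjusted p = 0.265) and -0.06 in Fyn-null mice. Cacna1d, the other L-type pore tested, was lower in all control ethanol than in all control saline pools by its brighter probe set. This probe set was at -0.18 in control mice (adjusted p = 0.314) and -0.04 in Fyn-null mice. Its other tested probe set went the other way, at 0.27 in control mice and 0.12 in Fyn-null mice. With the ratio in the fit, the brighter probe sets in control mice were at 0.0026 for Cacna1d and -0.03 for Cacna1c.

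Cacna1h, a pore of low-voltage-activated T-type channels, stood above 0. It was 7.36, 7.44 and 7.72 in control saline and 7.71, 7.72 and 7.46 in control ethanol. In Fyn-null saline it was 7.19, 7.35 and 7.50, and with ethanol 7.73, 7.38 and 7.69. The groups overlapped, with the highest saline value in control saline replicate 3. The difference was 0.25 in mice without Fyn (standard error 0.13, adjusted p = 0.485), 0.19 over both genotypes (standard error 0.09, adjusted p = 0.216), and 0.43 over both when the fit held the 3′ to 5′ ratio (standard error 0.13, adjusted p = 0.315). Cacna1g, another T-type pore, was at -0.03, and Cacna1b, the N-type pore, at 0.10 over both genotypes.

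Among the alpha2delta genes, Cacna2d3 was 8.96, 9.06 and 9.09 in control saline and 8.80, 8.95 and 8.86 in control ethanol. It was 9.11, 9.14 and 8.98 in Fyn-null saline and 9.13, 8.92 and 8.96 in Fyn-null ethanol. The control groups did not overlap (-0.16, standard error 0.08, adjusted p = 0.314), and the Fyn-null groups did (-0.08). With the ratio in the fit Cacna2d3 was at -0.05 in control mice and 0.05 in Fyn-null mice. Over both genotypes Cacna2d1, a subunit that binds gabapentin, was at -0.07 and Cacna2d2 at 0.09. The second tested Cacna2d1 probe set was at 0.34. By the probe set that stood for the gene, the 3 calcium channel beta genes were all above 0 over both genotypes, with 0 called. Cacnb2 was at 0.15, Cacnb1 at 0.02 and Cacnb4 at 0.01. Other probe sets reached 0.50 for Cacnb2, which was called, 0.38 for Cacnb1 and 0.70 for Cacnb4.

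Of the 5 TARPs, 4 were below 0 and Cacng5 above 0 (0.16, standard error 0.08, adjusted p = 0.227) over both genotypes. Cacng2, which encodes stargazin, was at -0.10, Cacng4 at -0.11, Cacng7 at -0.06 and Cacng3 at -0.01. Another probe set of Cacng2 was at 0.11. By the probe set that stood for the gene, all 4 sodium channel pore genes were below 0 in control mice, in Fyn-null mice and over both, without a call. Of all genes, 34.3% were above 0 in control mice, 43.6% in Fyn-null mice and 37.5% over both. Over both genotypes Scn1a was at -0.15, Scn3a at -0.14, Scn8a at -0.13 (standard error 0.06, adjusted p = 0.181) and Scn2a at -0.09. Other probe sets of these genes had the opposite sign over both genotypes, up to 0.62 for Scn1a, 0.33 for Scn2a and 0.05 for Scn8a, and Scn3a turned to 0.08 with the 3′ to 5′ ratio in the fit. The beta genes were mixed, with Scn2b at -0.12, Scn3b at -0.01 and Scn4b at 0.09.

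Groups that do not overlap were counted beside the background of all genes. In control mice 5 of 25 channel genes were lower in all ethanol than in all saline pools (Cacna1e, Cacna2d3, Cacna1d, Scn3a and Scn1a), where 19.3% of all genes were. Only Cacnb2 was higher in all, 1 of 25, where 5.36% of all genes were. In Fyn-null mice 0 of 25 were lower in all and 0 higher, against 11.4% and 7.13% of all genes. Over both genotypes 0 were lower and 0 higher, against 3.17% and 1.38%. Shares in control mice were near the background.

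**Figure D3:**
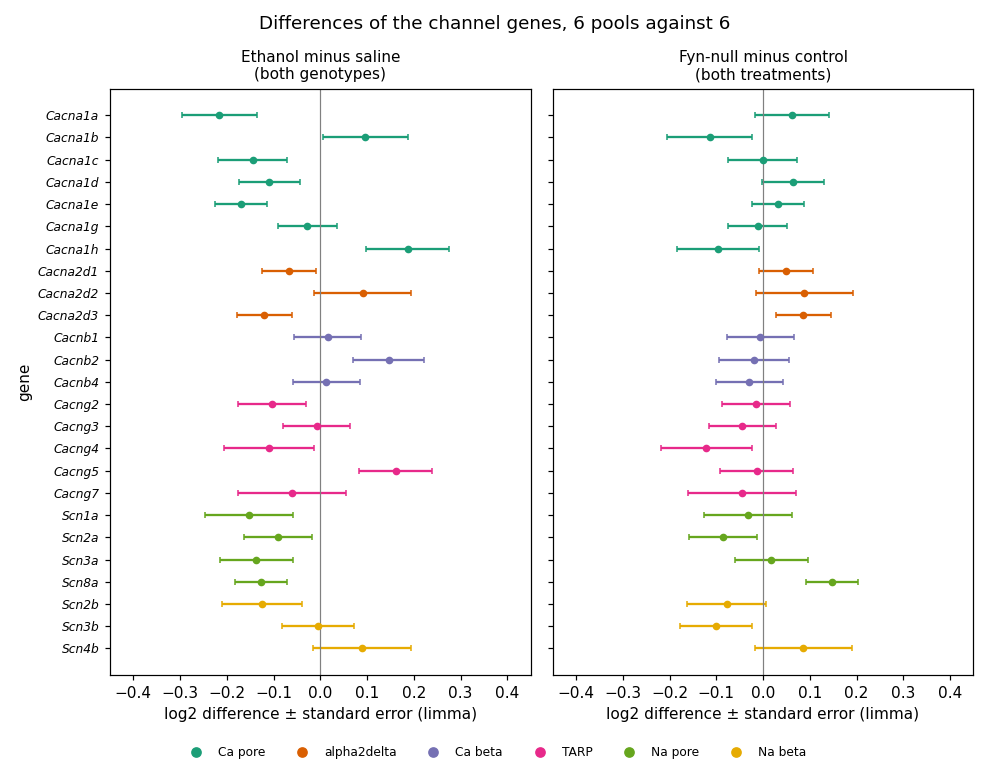
Log2 difference ± standard error (limma) of each tested channel gene for ethanol minus saline over both genotypes (left) and Fyn-null minus control over both treatments (right), 6 pools against 6, coloured by subunit class. No gene is called in either panel; on the left the brightest probe sets of the 4 sodium channel pore genes lie between -0.15 and -0.09, while other probe sets of Scn1a reach 0.62 (not plotted).

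The channel values were set against the 3′ to 5′ ratio as a description over 12 pools, which share treatment with it. The correlation was 0.89 for Cacna1a 1450510_a_at, 0.82 for Cacna1a 1430408_at and 0.88 for Cacna1e. It was -0.63 for Cacnb2 1452476_at. For the 2 probe sets of Cacna1d it was 0.79 and -0.68. Probe sets of the same gene could therefore run in opposite directions with the ratio.

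**Figure D4:**
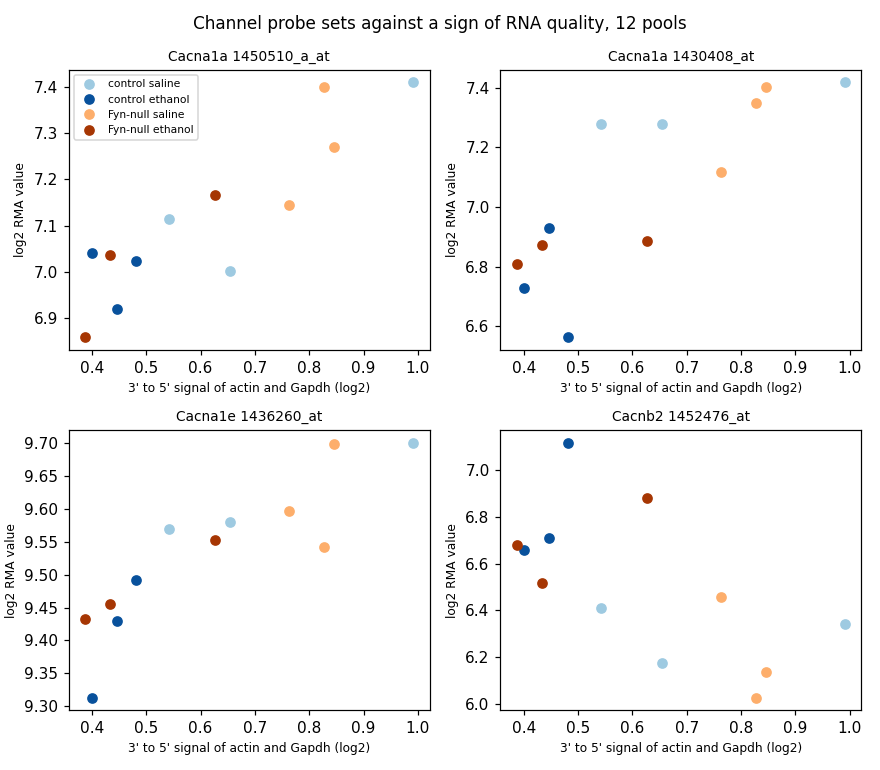
Log2 RMA value of 4 channel probe sets (vertical axes) against the log2 ratio of 3′ to 5′ signal of actin and Gapdh (horizontal axes) in the 12 pools, coloured by group. Ethanol pools have ratios of 0.387 to 0.627 and saline pools of 0.542 to 0.991, and Cacna1a and Cacna1e are high where the ratio is high.

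The basal comparison asked how channel genes differed between saline-treated Fyn-null and control mice. By limma 0 of 25 channel genes were called, as were 0% of all probe sets, and 0 of 25 had an unadjusted p under 0.05 (1.49% of all genes). The median difference was -0.03, against 0.01 for all genes, and it turned to 0.04 without control saline replicate 3. Under ethanol 0 of 25 were called (0% of all probe sets), and 0 had an unadjusted p under 0.05 (12.9% of all genes). Over both treatments 0 of 25 were called (0% of all probe sets), and 1, Scn8a, had an unadjusted p under 0.05 (9.89% of all genes). Of all 52 channel probe sets, 0 were called in these comparisons. An unadjusted p under 0.05 was found for 0 under saline (1.89% of all probe sets), 3 under ethanol (13.6%) and 3 over both (11.1%).

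Scn8a encodes the sodium channel pore concentrated at the axon initial segment and nodes of Ranvier. It was 10.12, 10.28 and 10.23 in control saline and 10.38, 10.41 and 10.32 in Fyn-null saline. It was 10.04, 10.06 and 10.18 in control ethanol and 10.33, 10.22 and 10.13 in Fyn-null ethanol. Every Fyn-null saline pool lay above every control saline pool, and under ethanol 1 Fyn-null pool (10.13) lay within the control range. The difference was 0.16 under saline (standard error 0.08, adjusted p = 1.00), 0.13 under ethanol (standard error 0.08, adjusted p = 0.507) and 0.15 over both (standard error 0.06, adjusted p = 0.378). Without each pool in turn the last ranged from 0.13 to 0.17. The 4 tested probe sets of Scn8a ranged from 0.06 to 0.16 under saline. They ranged from -0.11 to 0.15 under ethanol and from -0.01 to 0.15 over both treatments. Scn8a was the only channel gene without overlap under saline, 1 of 25 higher where 3.27% of all genes were, and 0 of 25 were lower where 2.02% were.

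Scn1a, the sodium channel pore prominent in fast-spiking interneurons, was 8.82, 8.63 and 8.67 in control saline and 8.91, 8.54 and 8.41 in Fyn-null saline. It was 8.61, 8.61 and 8.28 in control ethanol and 8.65, 8.37 and 8.54 in Fyn-null ethanol. The genotypes overlapped under both treatments. The difference was -0.08 under saline (standard error 0.14, adjusted p = 1.00) and -0.03 over both, and both turned to 0.02 without Fyn-null saline replicate 4. Its dimmer probe set 1450120_at was 6.66, 6.38 and 7.29 in control saline, 8.32, 7.86 and 7.05 in control ethanol, 6.53, 6.08 and 6.34 in Fyn-null saline and 6.88, 6.53 and 6.40 in Fyn-null ethanol pools. The last were all below the control ethanol pools, at -1.14 (standard error 0.29, adjusted p = 0.151), and over both treatments it was at -0.80 (adjusted p = 0.321). It was called over both treatments once both saline pools in doubt were left out. The third tested Scn1a probe set lay between 4.43 and 7.19.

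Cacna2d1 was 10.45, 10.45 and 10.57 in control saline and 10.63, 10.51 and 10.44 in Fyn-null saline. It was 10.44, 10.31 and 10.48 in control ethanol and 10.58, 10.44 and 10.39 in Fyn-null ethanol. The genotypes overlapped under both treatments, at 0.04 under saline (adjusted p = 1.00) and 0.05 over both. The basal value turned to -0.02 without Fyn-null saline replicate 2. A second tested Cacna2d1 probe set spread from 6.92 to 8.46 and went the other way. It was at -0.18 under saline, -0.36 under ethanol and -0.27 over both, without a call.

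Cacna1b was 8.96, 8.89 and 9.15 in control saline and 8.82, 8.63 and 9.16 in Fyn-null saline. It was 9.25, 9.02 and 8.97 in control ethanol and 9.13, 8.94 and 8.87 in Fyn-null ethanol. The genotypes overlapped, and Fyn-null minus control was -0.13 under saline (standard error 0.13, adjusted p = 1.00). Its other 3 tested probe sets lay between 7.04 and 8.35. Cacna1h, with the values given for ethanol, was at -0.16 under saline (standard error 0.13, adjusted p = 1.00) and -0.10 over both treatments. Cacna2d3 was at 0.13 under ethanol (standard error 0.08, adjusted p = 0.539) and 0.09 over both. By the probe set that stood for the gene, all 3 alpha2delta genes were above 0 in each genotype comparison without a call. Of all genes, 53.4% were above 0 under saline, 63.0% under ethanol and 62.1% over both treatments. The second tested Cacna2d1 probe set was below 0 in each of these comparisons. Cacnb4 1452089_at was 8.38, 7.13 and 9.39 in control saline and 8.28, 7.15 and 7.68 in Fyn-null saline. It was 9.50, 9.42 and 8.84 in control ethanol and 8.86, 7.93 and 7.65 in Fyn-null ethanol. The genotypes overlapped under both treatments. Fyn-null minus control was -0.59 under saline, -1.11 under ethanol and -0.85 over both, without a call. The probe set that stood for Cacnb4 was at -0.09 under saline and 0.03 under ethanol.

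Cacng7, a TARP, was 8.13, 8.14 and 7.89 in control saline and 8.06, 8.44 and 8.05 in control ethanol. It was 8.24, 8.41 and 7.95 in Fyn-null saline and 7.92, 8.19 and 7.74 in Fyn-null ethanol. The groups overlapped in every comparison, with SDs of 0.14 to 0.24 within groups. Under ethanol the genotypes differed by -0.23 (standard error 0.15, adjusted p = 0.535). Cacng4 was lower in all Fyn-null ethanol than in all control ethanol pools, at -0.19 (standard error 0.14, adjusted p = 0.593), 1 of 25 where 4.94% of all genes were lower without overlap. None of the 25 was higher without overlap, against 16.0% of all genes. Over both treatments 0 were higher and 0 lower, against 0.276% and 0.0487% of all genes.

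**Figure D5:**
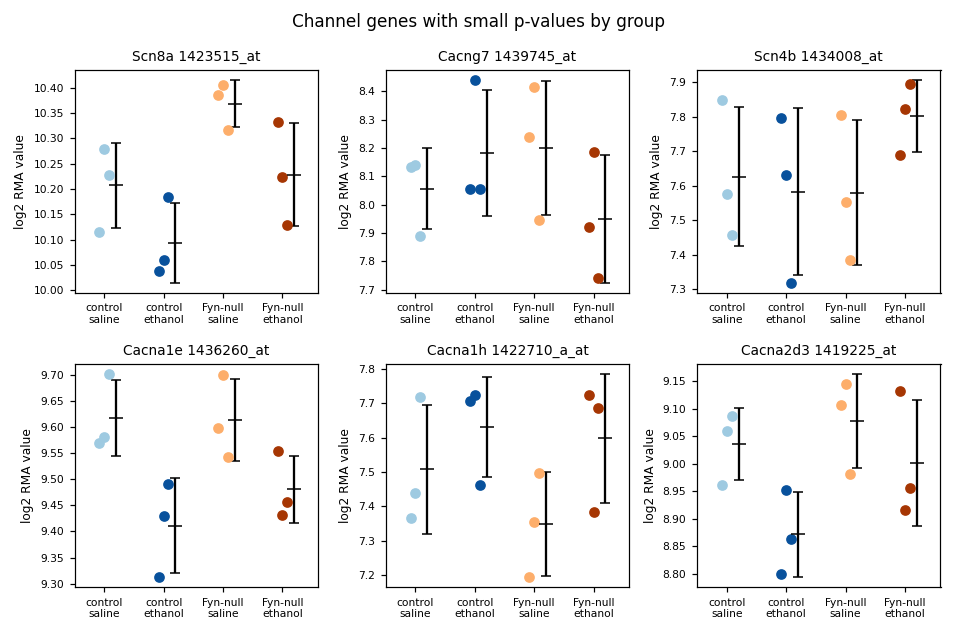
Log2 RMA value of 6 channel genes in the 4 groups; points are pools and bars are mean ± SD (n = 3 pools), on axes that do not start at 0. Scn8a parts the saline groups by genotype, Cacna1e and Cacna2d3 part the control groups by treatment, and the groups of Cacng7, Scn4b and Cacna1h overlap in these comparisons.

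The interaction asked whether the ethanol response differed between genotypes. By limma 0 of 25 channel genes were called, as were 0% of all probe sets, and 0 had an unadjusted p under 0.05 (3.85% of all genes). The median of the channel genes was 0.03 and that of all genes 0.04. Cacng7 had the smallest p, at -0.38 (standard error 0.21, adjusted p = 0.992), from 0.13 in control mice and -0.25 in Fyn-null mice. Without each pool in turn its interaction ranged from -0.50 to -0.25.

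Scn4b, the beta subunit linked to resurgent sodium current, was 7.85, 7.58 and 7.46 in control saline and 7.80, 7.63 and 7.32 in control ethanol. It was 7.80, 7.55 and 7.39 in Fyn-null saline and 7.69, 7.82 and 7.90 in Fyn-null ethanol. The Fyn-null ethanol pools overlapped with each of the other groups. Its interaction was 0.27 (standard error 0.20, adjusted p = 0.992), and that of Cacna1c was 0.16 (standard error 0.15, adjusted p = 0.992).

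Probe sets of one gene often disagreed. For the 15 channel genes with several tested probe sets, the correlation of each further probe set with the brightest over 12 pools had a median of 0.28 over 27 pairs and ranged from -0.85 (Cacna1d) to 0.82 (Cacnb2). It was above 0.5 in 6 pairs and below 0 in 7. For ethanol over both genotypes, the probe sets of a gene had both signs in 9 of 15 genes. Scn2b, for example, ranged from -0.12 to 0.81 and Scn3b from -0.01 to 0.49. Cacna1a, Cacna1c, Cacnb1, Cacnb2, Cacnb4 and Cacng4 kept 1 sign over their probe sets. Scn2b 1430648_at was 10.17, 9.76 and 7.57 in Fyn-null saline and 10.72, 10.49 and 10.54 in Fyn-null ethanol. Its ethanol difference was 1.41 in Fyn-null mice and 0.20 in control mice, without a call. Fyn-null minus control was -0.39 under saline and 0.82 under ethanol for this probe set, also without a call. The position of the probe sets in their transcripts was not analysed here, and probe sets with an s or x in their name may also match other transcripts.

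Single pools stood out across classes. Control saline replicate 3 was the highest of the 12 pools in 10 of 25 channel genes (20.8% of all genes), and it also had the highest 3′ to 5′ ratio. It was above the gene's mean in 20 of 25. Fyn-null ethanol replicate 2, with the lowest ratio, was the lowest pool in 6 of 25 and above the mean in 5.

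The remaining 10 channel genes were below the filter of 5.15 by mean, from 3.12 (Cacna1s) to 5.09 (Scn7a), and had no test. They were the pore genes Cacna1f (retina) and Cacna1s (skeletal muscle), Cacna2d4, the gamma subunits Cacng1 and Cacng6, the TARP Cacng8, and the sodium channel pores Scn7a, Scn9a, Scn10a and Scn11a, the last 3 known mainly from peripheral sensory neurons. A dim probe set does not show that the gene was silent.

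Partners of the channels were taken from a list of 35 genes (ankyrins and adhesion molecules of the axon initial segment, FGF homologous factors, RGK inhibitors, active zone proteins, calcium sensors and AMPA receptor auxiliary subunits), of which 31 were on the array by symbol and 26 were tested. None was called by limma in any of the 7 comparisons, and between 1 and 5 of the 26 per comparison had an unadjusted p under 0.05. The highest count, 5, was for ethanol over both genotypes, where 23.7% of all genes had one. Rem2, an RGK protein that inhibits calcium channels, was 5.67, 6.21 and 5.82 in control saline, 6.35, 6.17 and 6.24 in control ethanol, 6.20, 6.29 and 6.17 in Fyn-null saline and 6.24, 6.50 and 6.65 in Fyn-null ethanol. The treatments overlapped, and the difference over both genotypes was 0.30 (standard error 0.09, adjusted p = 0.0721). Nedd4l, a ubiquitin ligase that removes sodium channels from the membrane, was 9.28, 9.20 and 9.11 in Fyn-null saline and 9.58, 9.39 and 9.54 in Fyn-null ethanol. These groups did not overlap, at 0.31 (standard error 0.10, adjusted p = 0.231), whereas control pools lay between 9.08 and 9.35 and gave 0.01 for ethanol.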

How the data were processed

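Medial PFC was measured in 4 groups of 3 arrays of pooled RNA. The deposited log2 values had been summarised by the authors with RMA (affy package), according to the processing notes. Versions are not given in the sources at hand, and it is not stated if the methods' batch correction had been run on these values. The methods place the arrays of this region on a single processing day. S-scores, used in the methods, need probe-level data and were not computed. The number of mice per group differs between the labels and the methods. P-values measure the spread between pools.

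Left out were 64 control probe sets and, by mean over all arrays, the dimmest 45% of the rest, so that 24770 were fitted (R 4.3.3, limma 3.58.1, lmFit and eBayes). Models held 4 group means or 2 additive terms (genotype, treatment), and p-values were adjusted by Benjamini-Hochberg over all probe sets. The 7 comparisons were the basal difference, ethanol in each genotype, genotype under ethanol, the interaction, and both additive terms; they share pools. Genes given with every pool were those called, those with the 3 smallest p-values per comparison of group means or the 2 smallest per additive one, Cacna2d1 and Scn1a. Scn1a 1450120_at, Cacnb4 1452089_at, Scn2b 1430648_at and genes named for groups without overlap were chosen after their values were seen. Genes and lists were chosen with earlier results of these data known. The fits were tested on simulated data. All 35 genes matched a RefSeq gene by gene ID.

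Replicate numbers did not pair the pools: of 13 same-number pairs of arrays, 3 correlated above 0.1 in their residuals (from -0.43 to 0.32). The number of arrays limits the precision, with standard errors of 0.08 to 0.15 for 3 pools against 3. Alternatives were no filter, 60% left out, quantile normalization, the replicate block, trend and robust, array weights, only the groups compared, an average over a gene's probe sets, and each array left out. Leaving out both doubtful saline pools and the 3′ to 5′ covariate were chosen after seeing the data.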

Additional observations from a re-analysis of the deposited data

How the results depend on the processing

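Of 26 named differences under 22 settings, 535 of 561 values kept their direction and side of the threshold, 11 lost a call, 6 gained one and 9 reversed. With 1 value per gene, channel genes were called only with array weights and with a gene's probe sets averaged. With weights, 3 were called for ethanol in Fyn-null mice (Scn8a, Cacng7, Cacna1h) and 1 for genotype under ethanol (Cacng7). For ethanol over both genotypes the weights called 4 (Scn8a, Cacna1e, Cacna1h, Cacna1a). Of all 24770 probe sets, the weights called 2781, 3975 and 3854 in the same comparisons, in that order. Averaging called 3 for ethanol over both genotypes (Cacna1a at -0.26, Cacnb2 at 0.32, Scn3b at 0.24). For averaging, calls over all genes were not counted, so these 3 have no background. The weights gave Fyn-null ethanol replicate 3 a weight of 10.3, and those of the others were 0.454 to 1.45. The numbers of arrays and the signal over background of dim probe sets limit all comparisons.

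Probe sets called for the basal difference were 0, and 44 without both saline pools in doubt. For ethanol in control mice 355 became 36 with the replicate block, 18 with only the groups compared, 147 without both pools, 16 with the 3′ to 5′ covariate, and 76 to 410 leaving out 1 array. For ethanol in Fyn-null mice 99 became 155 with quantile normalization, 26 with the block, 2781 with weights, 54 without both pools, 15 with the covariate, and 33 to 145 leaving out 1 array. For genotype under ethanol 0 became 1 with trend and robust, 3975 with weights, 193 with only the groups compared, 260 without both pools, and 0 to 35 leaving out 1 array. For genotype over both treatments 0 became 1 with 60% left out, 2 with quantile normalization, 1797 with weights, 669 without both pools, and 0 to 129 leaving out 1 array. For ethanol over both genotypes 1686 became 710 with the block, 3854 with weights, 27 with the covariate, and 770 to 1625 leaving out 1 array.

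The median of the channel genes for ethanol turned to 0.047 in control mice, 0.038 in Fyn-null mice and 0.068 over both genotypes when a gene's probe sets were averaged, and with the covariate to 0.091 in Fyn-null mice and 0.052 over both. Scn1a under saline reversed to 0.057 with the block, and over both treatments to 0.0055 without both pools. Leaving out 1 array gave Scn1a -0.23 to 0.022 under saline and -0.091 to 0.020 over both treatments, positive without Fyn-null saline replicate 4. It gave Cacna2d1 -0.015 to 0.078 under saline, negative without Fyn-null saline replicate 2. Averaged over its probe sets, Cacna2d1 reversed to -0.073 under saline and -0.11 over both treatments. With the covariate, Cacna1a 1450510_a_at reversed to 0.033 in Fyn-null mice and 0.052 over both genotypes. The call of Cacna1a 1430408_at in control mice was also lost with only the groups compared (adjusted p = 0.0915) and with the covariate (adjusted p = 0.328). Cacna2d1 1440397_at was called in control mice without the filter, and Cacnb1 1451834_at over both genotypes without both pools. With the replicate block, the calls of Cacna1a 1430408_at in control mice (-0.53, adjusted p = 0.138) and of Cacnb2 1452476_at over both genotypes (0.48, adjusted p = 0.0519) were lost, and no other call of a named channel probe set changed. The cause of these changes was not tested.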
